A study of Rattus norvegicus with 8 samples.

Results

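The comparison described here asked what changed in the RNA of LPS-stimulated enteric glial cells (EGCs) when they were given Δ9-tetrahydrocannabinol (THC) beforehand. Its members were chosen by their labels: the 2 libraries of cells with THC and LPS, the 2 libraries of cells with LPS alone, and every gene whose highest raw count among the 8 libraries of the series was above 10. This gave 7875 of the 9848 genes listed. All cells were of the rat line EGC/PK060399egfr. LPS cells received 1 µg/mL LPS for 24 h by the labels, and THC + LPS cells received 0.1 µg/mL THC for 1 h and then the same LPS. The text of the paper's results gives a shorter time in LPS. The other 4 libraries, 2 of untreated Control cells and 2 of cells given 10 nM THC-COOH for 1 h before LPS, entered the estimate of the spread and are shown as context. The cannabinoids were dissolved in ethanol, and whether LPS cells received ethanol is not given in the sources used here.

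EGCs surround the neurons of the gut wall and are often compared with the astrocytes of the brain. LPS, a component of the outer membrane of Gram-negative bacteria, is sensed through TLR4, which signals through MyD88 to NF-κB. THC is the main psychoactive compound of Cannabis sativa and acts on the cannabinoid receptors CB1 and CB2. The assay was bulk MARS-seq, in which a molecule is counted from its 3' end, so the counts do not scale with transcript length. The table lists genes by Ensembl identifier only, and the reference gene table at hand (assembly GRCr8) holds 0 Ensembl identifiers, so they could not be looked up. No symbol, function, position or promoter sequence could therefore be given, the markers of glia could not be checked, and the genes are described by their levels. Whether any of them shares reads with a near-identical copy was not examined for the same reason.

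The total count was 879029 and 545779 in LPS libraries 1 and 2, and 1559935 and 715865 in THC + LPS libraries 1 and 2. THC + LPS library 1 was thus the deepest of the series and LPS library 2 the shallowest. A single count was worth between 0.640 and 1.86 CPM (counts after scaling for library size and TMM factor) in these 4 libraries. No batch is given in the labels. Nothing says that replicate libraries were separate cultures, so the spread behind a p is only that between these samples, which may be technical. In edgeR this spread is also shared across genes and all 4 groups, with 19.7 prior against 4 residual degrees of freedom. A p can therefore be small for a gene whose 2 libraries of a group differ widely. In bulk RNA, fewer cells expressing a gene and less of its RNA per cell cannot be told apart.

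Few transcripts differed between THC + LPS and LPS cells by more than the spread between libraries. In edgeR's quasi-likelihood test, 2 of 7875 genes (0.0254%) passed an adjusted p under 0.05 and a fold change above 1.6. One rose (0.0127%) and one fell (0.0127%). The median log2 fold change over all genes tested was −0.00031 and the median absolute log2 fold change was 0.19. Before correction, 197 genes (2.5%) had p under 0.05 with higher levels after THC and 288 (3.66%) had it with lower levels. Both THC + LPS libraries lay above both LPS libraries in 1409 genes (17.9%) and below both in 1469 (18.7%). Of the 485 genes with an unadjusted p under 0.05, the libraries of the 2 groups overlapped in 32. The smallest adjusted p among genes that were not called was 0.0556, 6 genes had an adjusted p under 0.1, and 33 had one under 0.2 (edgeR). The number called moved with the fit: the 4 libraries of the comparison alone gave 4, DESeq2 gave 3 and limma voom gave 1. No low-count filter gave 16 and a replicate block gave 18, the widest shifts at an adjusted p. Without THC + LPS library 1, edgeR called 0 genes, with 465 at an unadjusted p under 0.05; without LPS library 2 it called 9.

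**Figure D1:**
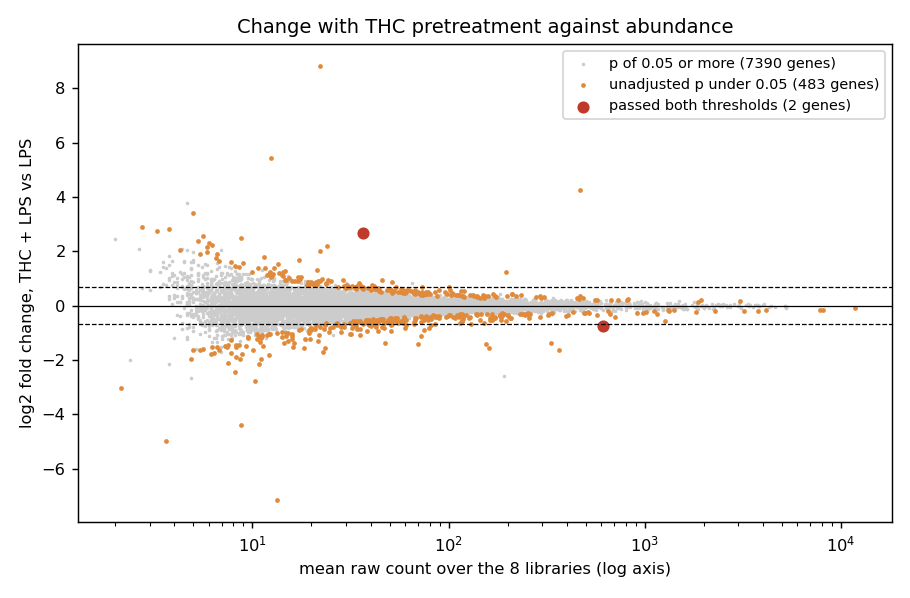
Each point is 1 of the 7875 genes tested, with its mean raw count over the 8 libraries (x axis, log scale) and its log2 fold change between THC + LPS and LPS (y axis). The dashed lines mark a 1.6-fold change. Large changes are found mostly at low counts, and the 2 genes that passed both thresholds (large points) have log2 fold changes of 2.69 and −0.76.

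How far the comparison could see depended on the abundance of a gene. Among the 809 genes with a mean count of 200 or more, the median absolute log2 fold change was 0.077, and the 95% interval of the change lay within a 1.6-fold change in 778 of the 790 genes for which an interval could be computed (98.5%). Among 2322 genes with mean counts from 50 to 200, the median absolute change was 0.14, and the interval lay within 1.6-fold in 1847 of 2274 (81.2%). For 3717 genes with mean counts from 10 to 50 it did so in 453 of 3640 (12.4%). Below a mean count of 10 it did so in 0 of 1004 genes, where the median half-width of the interval was 1.33 on the log2 scale. A change of 1.6-fold could therefore not be excluded in any of these 1004 rarest transcripts at this depth. These shares tell where such a change can be excluded. They do not tell where it would be called, which needs an adjusted p under 0.05 over all genes tested. These rare genes also entered the test by their highest library, which may lie in any of the 4 groups. Where it lies in a group compared here it can favor a difference, and this was not tested. Over all abundances, 3078 of 7708 genes (39.9%) had an interval within 1.6-fold.

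**Figure D2:**
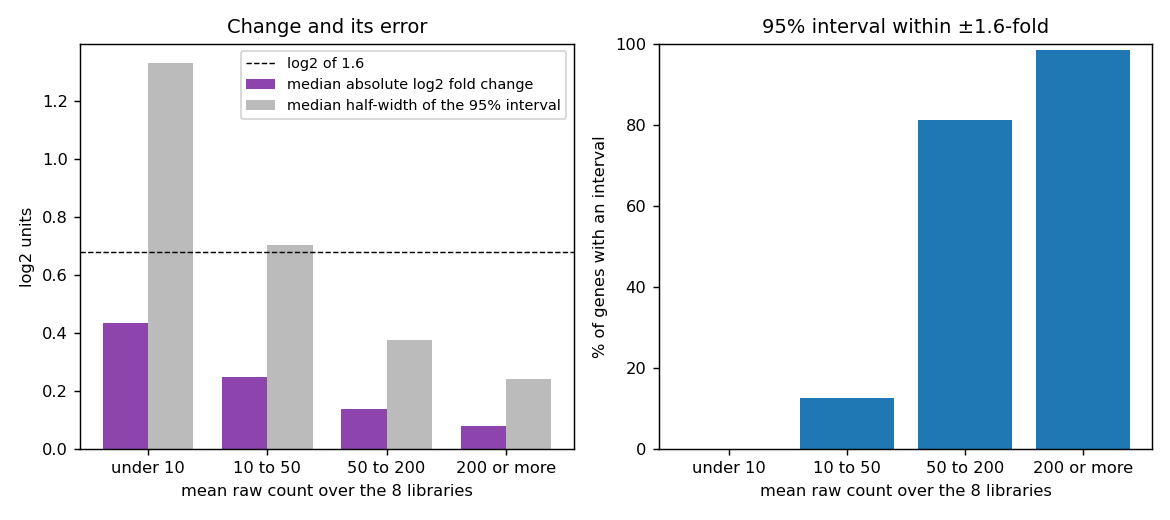
Genes are grouped by mean raw count over the 8 libraries (x axes). Left, bars give the median absolute log2 fold change of THC + LPS vs LPS (0.43 at mean counts under 10 and 0.077 at 200 or more) and the median half-width of its 95% interval. Right, bars give the percentage of genes whose interval lay within a 1.6-fold change, from 0 of 1004 genes in the lowest group to 98.5% in the highest.

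A log2 fold change above 2 in either direction was measured in 35 genes, 23 higher and 12 lower with THC. Their median mean count was 5.88, and 25 of the 35 had a mean count under 10. In 12 of the 35 the libraries of the 2 groups overlapped, and 23 had groups that lay apart. Over all genes tested, the groups lay apart with higher levels in 17.9% and with lower levels in 18.7%. The 35 were chosen by the size of their change, so their share is a description. The limit of detection was looked at in all 9848 genes listed, tested or not. Of these, 59 had 0 counts in both LPS libraries and at least 1 count in both THC + LPS libraries, and 2 of the 59 had at least 4 counts in both. The reverse was found in 20 genes, of which 0 had at least 4 counts in both LPS libraries. THC + LPS library 1 was the deepest library, and its depth moves with these counts. Its part in them was not tested.

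Of the 2 genes that passed, ENSRNOG00000057078 was an abundant transcript that fell with THC. Its CPM was 884 and 993 in the LPS libraries and 557 and 547 in the THC + LPS libraries, from raw counts of 778, 535, 869 and 395. The 2 groups lay far apart, and each THC + LPS library had between 0.551 and 0.629 of the level of each LPS library. The means were 938 ± 76.6 CPM with LPS and 552 ± 6.90 CPM with THC + LPS (SD, n = 2 libraries in each group). This is a level 1.70-fold lower, a log2 fold change of −0.76 (95% interval −0.96 to −0.56, adjusted p = 0.000283 from edgeR). The upper end of that interval is a change smaller than 1.6-fold. Control libraries had 608 and 633 CPM, and THC-COOH + LPS libraries had 754 and 683. The level with THC was thus the lowest of the 4 groups, LPS was the highest, and no group overlapped another. In LPS vs Control the log2 fold change was 0.59 (95% interval 0.39 to 0.79, adjusted p = 0.00928 from edgeR), below the minimum fold. That contrast shares the LPS libraries by which the gene was chosen. Against Control cells, the THC + LPS level had a log2 fold change of −0.17 (95% interval −0.37 to 0.03, adjusted p = 0.922 from edgeR, where 0.0508% of genes were called). Against THC-COOH + LPS it was −0.38 (95% interval −0.58 to −0.18, adjusted p = 0.0944 from edgeR), so a difference between the pretreatments did not pass. The call was lost without LPS library 2, where the log2 fold change of −0.68 fell just short of the minimum fold, and without THC + LPS library 1, at −0.77 with an adjusted p of 0.0587 (edgeR).

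The other was ENSRNOG00000047737, a scarcer transcript that rose with THC. It had 10.2 and 5.57 CPM in the LPS libraries and 64.7 and 40.1 CPM in the THC + LPS libraries. The LPS levels rest on 9 and 3 raw counts, and the THC levels on 101 and 29. The lower THC + LPS library was 3.92 times the higher LPS library, and the widest of the 4 ratios between single libraries was 11.6. Over both libraries the level was 6.45-fold higher, a log2 fold change of 2.69 (95% interval 1.90 to 3.48, adjusted p = 0.00114 from edgeR). Control libraries had 106 and 83.1 CPM, and THC-COOH + LPS libraries had 3.93 and 3.29. The order of the groups was Control, THC + LPS, LPS and THC-COOH + LPS, without overlap, and LPS and THC-COOH + LPS both rest on 12 counts or fewer in all. In LPS vs Control the log2 fold change was −3.47 (adjusted p = 1.04e-05 from edgeR, where 0.0381% of genes were called), and it shares its LPS libraries with the comparison with THC. The contrast with THC-COOH + LPS leaves out the LPS libraries but shares the THC + LPS libraries by which the gene was chosen. Its log2 fold change was 3.87 (95% interval 3.02 to 4.73, adjusted p = 8.93e-06 from edgeR, where 0.229% of genes were called). The doses of the 2 compounds were not matched. The call against LPS was lost with limma voom (adjusted p = 0.0706) and without THC + LPS library 1, where the log2 fold change was 2.24 with an adjusted p of 0.328 (edgeR).

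The rule for named genes took 12 genes in each direction with the smallest p among those whose groups lay apart, and only 2 identifiers in each direction are given because the genes could not be named. In the higher direction the gene next in order had 168 counts in THC + LPS library 1, while the other 7 libraries had no more than 2. It is left unnamed, a choice made after its values were seen, and the next gene is given in its place. ENSRNOG00000062272 had 7.96 and 14.8 CPM in the LPS libraries and 51.2 and 47.1 CPM in the THC + LPS libraries. The THC + LPS libraries were close to each other, and each was at least 3.17 times either LPS library. The log2 fold change was 2.202 (95% interval 1.32 to 3.09, adjusted p = 0.0591 from edgeR), so it did not pass. Control libraries, with 12.1 and 14.3 CPM, lay within the range of LPS. The THC-COOH + LPS libraries differed from each other, at 11.8 and 35.1 CPM, and both lay below the THC + LPS libraries. Its call depended on the fit, since it passed in 8 of 16 other fits, among them the 4 libraries alone, each fit without a Control library and each fit without a THC-COOH + LPS library.

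In the lower direction the next gene was ENSRNOG00000021960, with 73.9 and 70.5 CPM in the LPS libraries and 26.9 and 29.1 CPM in the THC + LPS libraries. Every THC + LPS library had between 0.364 and 0.412 of the level of an LPS library. The log2 fold change was −1.38 (95% interval −1.96 to −0.80, adjusted p = 0.0802 from edgeR), so it did not pass either. Control libraries had 60.4 and 61.1 CPM, and the THC-COOH + LPS libraries had 82.6 and 41.7 CPM. THC + LPS was thus the lowest group, below each of the other 6 libraries. Against Control the log2 fold change was −1.13 (adjusted p = 0.278 from edgeR), and against THC-COOH + LPS it was −1.18 (adjusted p = 0.0606 from edgeR). The gene passed in 5 of the 16 other fits, among them the 4 libraries alone.

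**Figure D3:**
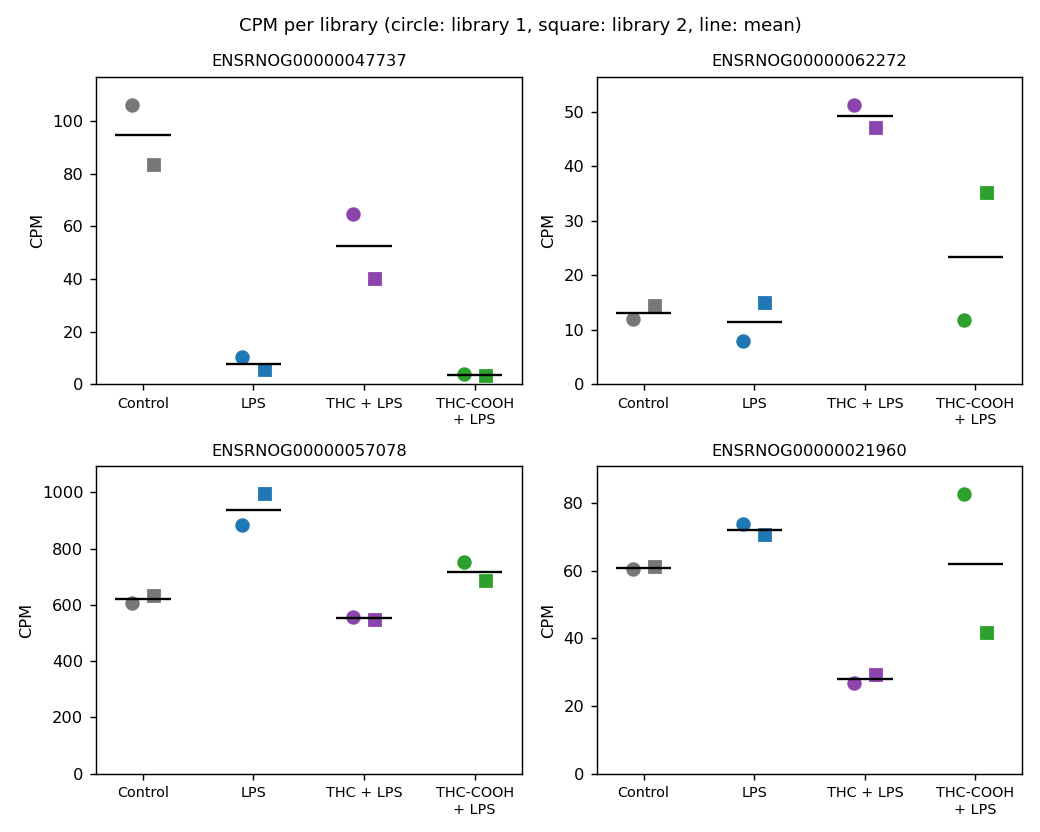
Each panel gives the CPM of 1 gene (y axis, from 0) in the 8 libraries by group, with a circle for library 1, a square for library 2 and a line at their mean. ENSRNOG00000047737 and ENSRNOG00000062272 were higher with THC + LPS than with LPS, at 52.4 against 7.90 CPM and 49.2 against 11.4 CPM, and ENSRNOG00000057078 and ENSRNOG00000021960 were lower, at 552 against 938 CPM and 28.0 against 72.2 CPM.

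Over the 12 genes of the higher direction the log2 fold change ran from 0.35 to 8.83, with a median of 1.25. Of these 12, 1 was called, 3 changed by less than 1.6-fold, and 6 had fewer than 20 counts in at least 1 of the 4 libraries. Mean levels in them ran from 0 to 466 CPM with LPS and from 25.7 to 771 CPM with THC + LPS. Some of these extremes rest on a single library. The 8.83 and the 0 CPM belong to the unnamed gene with 168 counts in THC + LPS library 1 and 2 in library 2. The 771 is the mean of 1496 and 45.7 CPM in THC + LPS libraries 1 and 2 of another gene. The 12 genes of the lower direction had log2 fold changes from −0.42 to −2.78, with a median of −0.91. Again 1 was called and 3 changed by less than 1.6-fold, while 3 had fewer than 20 counts in a library. Their mean levels ran from 28.9 to 1780 CPM with LPS and from 4.69 to 1195 CPM with THC + LPS. The genes at the head of the lower direction were thus counted better than those at the head of the higher one. These genes were chosen by the same p, so the ranges are a description.

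Among the 809 genes with a mean count of 200 or more, 4 changed by more than 1.6-fold, and 1 of them was called. In the other 3, libraries of the same group stood far apart. One had 298 and 1288 CPM in the LPS libraries and 272 and 328 CPM in the THC + LPS libraries, so that LPS library 2 alone was high, and Control libraries had 268 and 301 CPM. Another had 1496 CPM in THC + LPS library 1 and 45.7 CPM in library 2, with 40.9 and 44.5 CPM with LPS, and Control library 2 was also high, at 1548 CPM. The remaining gene had 435 and 106 CPM with LPS and 68.5 and 126 CPM with THC + LPS. In it, as in the first of these genes, the LPS and THC + LPS groups overlapped. Its Control libraries had 722 and 433 CPM and its THC-COOH + LPS libraries had 560 and 932 CPM, all above both THC + LPS libraries. The adjusted p of these 3 genes ran from 0.173 to 0.179 (edgeR).

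The size of the THC difference was set against that between libraries treated alike. In 2025 genes with at least 50 counts in each of the 4 libraries, the median absolute log2 difference in CPM was 0.135 between the 2 LPS libraries and 0.117 between the 2 THC + LPS libraries. Between an LPS and a THC + LPS library it ran from 0.128 to 0.152. Counting error alone would give medians from 0.097 to 0.129 in these pairs, depending on their depth. By this median, a single LPS library and a single THC + LPS library differed by about as much as the 2 LPS libraries did. The pairs are of unlike depth, so their medians hold unlike parts of counting error. More than 1.6-fold lay between the 2 LPS libraries in 24 genes (1.19%), between the 2 THC + LPS libraries in 6 (0.296%), and between libraries of different groups in 14 to 18 (0.691% to 0.889%). The squared difference of each gene was also divided by the variance that counting error gives to that gene. The mean of this ratio over the genes was 2.02 for the LPS pair and 1.98 for the THC + LPS pair. Replicate libraries thus differed by more than this counting error, which is that of independent (Poisson) counts. Whether each count is a separate molecule is not given in the sources used here, and its part was not tested. Across the groups the mean ratio was between 2.26 and 3.20, so each such pair lay above both same-group pairs. This ratio also moves with depth. The 3.20 belongs to LPS library 1 and THC + LPS library 1, the pair with the least counting error (median 0.097). What the higher ratios across the groups rest on was not tested.

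**Figure D4:**
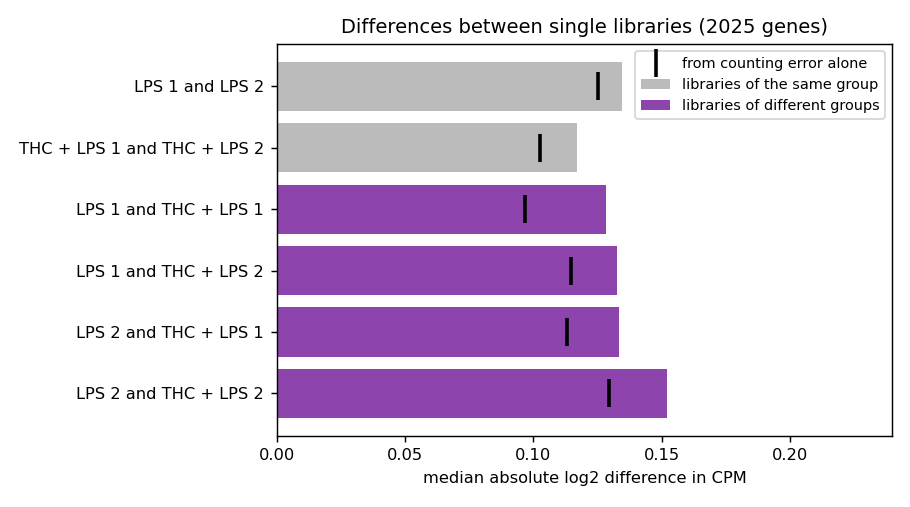
Bars give the median absolute log2 difference in CPM over 2025 genes for each pair of the 4 libraries, grey within a group and purple between groups, and black marks give the value from counting error alone. The pairs between groups, from 0.128 to 0.152, lie around the 0.135 of the 2 LPS libraries. Counting error differs by pair, at 0.125 for the 2 LPS libraries and from 0.097 to 0.129 between groups.

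The 10 most abundant transcripts together took a slightly smaller share of the counts in both THC + LPS libraries than in both LPS libraries, and the 100 most abundant did not. The 10 genes with the highest mean CPM, from 4832 to 13346, held 7.05% and 7.04% of the counts in the LPS libraries and 6.72% and 6.78% in the THC + LPS libraries. Exact binomial 95% intervals, which cover counting error only, were 6.99% to 7.10% and 6.97% to 7.11% with LPS, and 6.68% to 6.76% and 6.73% to 6.84% with THC + LPS. The groups did not overlap, with means of 7.04% ± 0.00575 and 6.75% ± 0.0479 (SD, n = 2 in each group), but an exact two-sided permutation test of 2 against 2 libraries cannot go below its p of 0.333. Control libraries had 6.88% and 6.90%, and THC-COOH + LPS libraries had 6.99% and 7.02%, so that the THC + LPS libraries were the lowest of the 8. By gene, all 10 had a log2 fold change below 0 in edgeR, from −0.16 to −0.01, and 8 of 10 had one below 0 in limma voom. Both THC + LPS libraries lay below both LPS libraries in 5 of the 10 and above both in 0. Over all genes tested these shares were 18.7% and 17.9%. None was called, where 0.0254% of all genes tested were, and the smallest adjusted p was 0.301 (edgeR). An unadjusted p under 0.05 was found in 3 of the 10 by edgeR, 3 by limma voom and 1 by DESeq2. Over all 7875 genes tested it was found in 485 by edgeR, 506 by limma voom and 117 by DESeq2. The 100 most abundant genes held 29.6% and 30.0% of the counts with LPS and 29.6% and 29.2% with THC + LPS, so that the groups overlapped. The exact binomial 95% intervals of these shares were 29.5% to 29.7% and 29.8% to 30.1% with LPS, and 29.5% to 29.7% and 29.1% to 29.3% with THC + LPS. Among these 100 the log2 fold change ran from −0.25 to 0.22, with 39 genes higher and 61 lower. The interval lay within a 1.6-fold change in 96 of the 96 genes for which it could be computed.

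**Figure D5:**
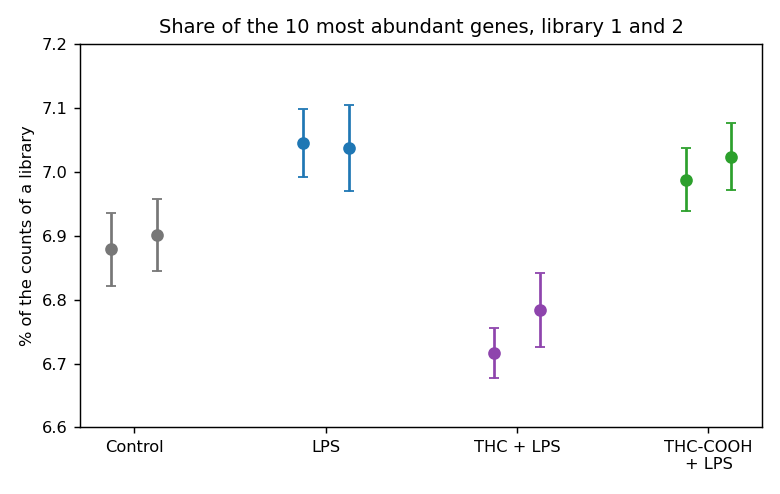
Points give the share of a library's counts held by the 10 most abundant genes (y axis, %, not from 0) in library 1 and 2 of each group, with exact binomial 95% intervals. The THC + LPS libraries, at 6.72% and 6.78%, lie below the other 6, which run from 6.88% to 7.05%.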

How the data were processed

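The rat enteric glia were profiled in 8 bulk MARS-seq libraries, 2 in each of 4 groups taken from the sample titles. Per the labels, the authors demultiplexed with bcl2fastq 2.20.0.422, trimmed with cutadapt, aligned with STAR 2.7.3a to Rnor_6.0, counted with HTSeq, and deposited raw counts per Ensembl gene. The sources used here do not give the annotation release, the counting options or the use of molecular identifiers. The deposited normalized values are a signal, each count divided by the DESeq2 size factor of its library. They were checked against the raw counts (factors from 0.638 to 1.84) and not used further.

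Raw counts were fitted with edgeR 4.0.16 in R 4.3.3 (TMM, quasi-likelihood, robust off), with 1 coefficient per group over all 8 libraries and 4 residual degrees of freedom. Genes whose highest raw count was above 10 were tested, with Benjamini-Hochberg adjustment over all 7875. The thresholds, an adjusted p under 0.05 and a fold change above 1.6, are those of the study's methods. Standard errors were derived from the log2 fold change and the F statistic, and 95% intervals use the t distribution with edgeR's total degrees of freedom. No interval was computed where F was under 0.001.

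The named genes were to be the called genes, in each direction the 12 genes of smallest p among those with groups apart, genes the paper names, and members of gene lists. The last parts, and 26 lists with 705 entries, were not run because the table of 47357 GRCr8 genes used here holds 0 Ensembl identifiers, so none could be paired with a symbol. The members and lists were chosen with earlier results of these data known. Alternatives were DESeq2 size factors, filterByExpr, no filter, DESeq2 1.42.0 with the study's settings, limma voom (limma 3.58.1), a fit of the 4 libraries alone, a replicate block, fits that left out 1 library, and other thresholds. Python 3.11.15 with matplotlib 3.10.9 drew the figures.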

Additional observations from a re-analysis of the deposited data

Results flagged for a closer look

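The response of ENSRNOG00000047737 differed between the pretreatments: THC + LPS against THC-COOH + LPS gave 3.87 on the log2 scale (adjusted p = 8.93e-06 from edgeR). The raw counts were 101 and 29 with THC + LPS and 4 and 3 with THC-COOH + LPS, and both THC + LPS libraries were higher than both of the others. The gene was chosen through these same THC + LPS libraries, so this contrast is not independent of the comparison with LPS. The doses differ, and what this difference between the pretreatments rests on was not tested.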

How the results depend on the processing

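The counts here are of genes called in all, higher and lower with THC. DESeq2 size factors in edgeR, no minimum fold, and (chosen after the data were seen) leaving out 3 genes of a single library gave the same 2, 1 and 1. With filterByExpr (7219 genes) and with DESeq2 they were 3, 2 and 1, and with limma voom 1, 0 and 1. No low-count filter (9839 genes) gave 16, 5 and 11. The 4 libraries alone gave 4, 2 and 2, and an unadjusted p with the minimum fold gave 211, 90 and 121, uncorrected. Leaving out each library gave 0 to 9, 0 to 4 and 0 to 8. With 0 genes called, 465 had an unadjusted p under 0.05 (edgeR). Both called genes were among the calls of every fit except limma voom and those without THC + LPS library 1 or LPS library 2. Where a library was left out, the lone library left in its group was given the spread of the remaining groups. The cause of these shifts was not tested.

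A fit with a replicate block was also made, in which the counts were 18, 5 and 13. The deviations of same-numbered libraries were compared across 3131 genes with a mean count of 50 or more. Their correlations ran from −0.086 to 0.103 in 6 pairs of groups, with −0.046 for LPS and THC + LPS. Whether libraries of the same number were handled together was not tested. None of the 24 genes taken by the rule changed direction in any fit, and 12 of them were called with both thresholds in at least 1 other fit. With the unadjusted p and the minimum fold, 18 of the 24 passed. The 24 were chosen in these data for a small p and for groups that lay apart. A kept direction and a low unadjusted p were thus largely fixed by the choice, and these counts are only a description. The gene lists have no alternatives, as no list was run. Depth limits the rarest genes most: no gene with a mean count under 10 had an interval within a 1.6-fold change.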
